A study of Mus musculus with 6 samples.

Results

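The sensing of nucleic acids was followed in 4T1 cells through 10 genes, Tlr3, Mb21d1, Mavs, Ticam1, Tmem173, Traf3, Tbk1, Ikbke, Irf3 and Trex1. They were taken by symbol from the 48587 genes of the count table, where STING and cGAS are written Tmem173 and Mb21d1. Of these 10 genes, 9 were among the 13166 genes that reached 1 cpm, the count adjusted for library size, in 3 or more libraries, and Trex1 had no counts. 4T1 is a mouse mammary carcinoma line. One group, METTL7A1, was stably transfected with full-length Mettl7a1 cDNA in the pBICEP-CMV-2 vector, and the other, mock, carried the empty vector. Both groups were kept under 350 µg/ml G418. Total RNA was sequenced from 3 biological replicates of each group, to ask how METTL7A1, a putative methyltransferase, affects the transcriptome. Whether the transfectants were a pool or a clone, or the replicates separate transfections, is not given in the sources used here. The expression of METTL7A1 and any other difference between the transfected lines cannot be told apart.

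In these pathways RIG-I-like receptors recognise viral RNA in the cytosol and act through MAVS on mitochondria, whereas cGAS recognises DNA and makes a cyclic dinucleotide, cGAMP, that activates STING on the endoplasmic reticulum. TLR3 recognises RNA duplexes from within endosomes and acts through TRIF, the product of Ticam1, so Tlr3 and Ticam1 are not cytosolic in the strict sense. The routes meet at TRAF3 and the kinases TBK1 and IKKε (Ikbke), which phosphorylate IRF3 to switch on interferon and antiviral genes. TREX1 degrades cytosolic DNA ahead of cGAS. Many tumour lines have lost cGAS or STING, and the mRNA level of a component says nothing about its phosphorylation.

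Library totals ranged from 18386780 to 28459338 counts, and 3 counts, taken as the floor of detection, corresponded to 0.102 to 0.164 cpm. Mettl7a1 had between 6355 and 11358 counts in METTL7A1 libraries and 29 or 30 in mock libraries (log2 fold change 8.17, SE 0.14, n = 3 against 3), as the labels say. Between the groups 42.1% of all tested genes differed at an adjusted p under 0.05, of which 21.1% of tested genes were higher in METTL7A1 and 21% lower. The study thresholds, an adjusted p under 0.01 and a log fold change beyond 1.5, whose base the methods do not state and which was taken here as log2, were passed by 2.48%. The median log2 fold change of all tested genes was -0.03. Of 7 leukocyte markers, Cd3e, which defines T cells, had no counts in any library, and Ptprc, the pan-leukocyte marker, had between 3 and 8. Cd68 (log2 fold change 1.23) and Csf1r (1.68, tested only through the METTL7A1 libraries) were higher in METTL7A1. The 7 markers summed to 14.2 to 16.5 cpm in METTL7A1 and 5.90 to 6.84 cpm in mock. Most of this sum was Cd68, with means of 12.8 cpm in METTL7A1 and 5.43 cpm in mock.

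Of the 9 tested sensing genes, 5 were higher in METTL7A1 (Ikbke, Tlr3, Tmem173, Tbk1 and Mavs), 1 was lower (Traf3) and 3 were not called (Mb21d1, Irf3 and Ticam1). Ikbke rose to 3.34 times its mock level, and Tlr3 to 1.84 times, whereas the other 3 rises lay between 1.32 and 1.36 times. The 6 called genes were 66.7% of those tested, against 42.1% of all tested genes. The groups of libraries did not overlap for the same 6 of the 9, again 66.7%, against 51.6% of all tested genes. The median log2 fold change of the 9 genes was 0.40, with a range of -0.47 to 1.74. Ikbke alone passed the study thresholds, which 1.61% of all tested genes did in the same direction and 0.866% in the other. In RNA from whole cultures, a change in the share of expressing cells and a change per cell cannot be told apart.

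The promoter windows of the 2 genes with the largest rises, of the gene that fell, and of Rsad2, an interferon-induced gene that serves as a comparison, are shown to place the letters that IRF and NF-κB factors are known to bind. Windows run from 250 bases before to 50 after the start of the RefSeq transcript on GRCm38.p6, and each is written 5′ to 3′ on the strand of its gene. They span chr1:131279514-131279813 (minus strand) for Ikbke, chr8:45410331-45410630 (minus) for Tlr3, chr12:111166120-111166419 (plus) for Traf3 and chr12:26456403-26456702 (minus) for Rsad2. Capitals mark matches to the searched letters on either strand.
Ikbke: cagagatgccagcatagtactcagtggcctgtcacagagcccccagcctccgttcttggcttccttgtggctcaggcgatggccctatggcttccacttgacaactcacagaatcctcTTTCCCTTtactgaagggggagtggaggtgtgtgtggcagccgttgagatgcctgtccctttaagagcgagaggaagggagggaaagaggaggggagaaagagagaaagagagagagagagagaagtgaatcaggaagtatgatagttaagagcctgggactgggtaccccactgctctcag
Tlr3: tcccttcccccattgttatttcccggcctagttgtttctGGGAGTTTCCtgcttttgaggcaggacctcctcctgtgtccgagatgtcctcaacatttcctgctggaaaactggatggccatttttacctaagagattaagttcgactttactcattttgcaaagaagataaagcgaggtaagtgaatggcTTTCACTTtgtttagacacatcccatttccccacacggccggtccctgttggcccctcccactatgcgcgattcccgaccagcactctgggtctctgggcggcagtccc
Traf3: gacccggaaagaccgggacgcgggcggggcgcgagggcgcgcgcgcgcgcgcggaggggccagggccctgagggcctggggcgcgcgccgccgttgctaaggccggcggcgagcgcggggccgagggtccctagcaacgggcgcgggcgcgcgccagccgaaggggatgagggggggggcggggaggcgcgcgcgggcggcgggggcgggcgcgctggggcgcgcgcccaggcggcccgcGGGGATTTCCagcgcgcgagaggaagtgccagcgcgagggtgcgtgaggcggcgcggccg
Rsad2: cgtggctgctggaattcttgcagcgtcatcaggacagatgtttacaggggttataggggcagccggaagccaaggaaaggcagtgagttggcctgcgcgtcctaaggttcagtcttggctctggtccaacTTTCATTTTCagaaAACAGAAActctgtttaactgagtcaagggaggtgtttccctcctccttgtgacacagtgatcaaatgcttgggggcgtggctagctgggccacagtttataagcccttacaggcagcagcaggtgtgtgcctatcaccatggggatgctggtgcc

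An IRF core, AANNGAAA, stood on the minus strand of the Ikbke window at position -132 and of the Tlr3 window at -59, both counted from the start of the transcript. The IRF core was absent from the windows of the other 7 sensing genes that had one, and occurred in 23.9% of all 32851 windows searched. Windows of chromosome 18, where Tmem173 lies, were not searched, so 9 of the 10 genes were matched. The longer interferon-stimulated response element (ISRE), written as GAAA, any 2 bases and GAAA again, always contains an IRF core. It occurred in 3.44% of all windows and in none of these 9. The Rsad2 window held it at -120. A κB-like run, written as GGG, any 2 bases and TTTCC, occurred in 1.63% of all windows and in those of Tlr3, at -211, and Traf3, at -10. These κB letters were widened after the windows had been looked at. Their matches here and their share of all windows are therefore not an independent comparison. GAS letters, TTCNNNGAA, occurred in 8.3% of all windows and in none of the 9. The Traf3 window was 84.0% G or C with 59 CpG pairs, above 99.8% and 99.9% of all windows, whereas that of Ikbke was 54.0% G or C with 4 CpG pairs, and the medians of all windows were 52.67% and 7. A match of letters is a description of the sequence, and binding was not measured.

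The sensors were examined first. Tlr3, the endosomal receptor for RNA duplexes (mm10, chr8:45395665-45410619, minus strand), stood at 48.3, 57.5 and 56.3 cpm in METTL7A1 replicates 1 to 3 and at 26.9, 31.3 and 29.8 cpm in mock. Every METTL7A1 library lay above every mock library. The means were 54.0 ± 5.0 and 29.3 ± 2.23 cpm (SD, n = 3 in each group), which gave a log2 fold change of 0.88 (SE 0.09, adjusted p = 2.43e-05). The call held in all 14 alternatives, with log2 fold changes between 0.83 and 0.96.

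Mb21d1 encodes cGAS, the DNA sensor that makes cGAMP (chr9:78430526-78443237, minus strand). It was measured at 29.1, 24.9 and 27.8 cpm in METTL7A1 and at 26.6, 28.1 and 29.2 cpm in mock. The groups overlapped, and the log2 fold change of -0.04 had a 95% interval of -0.23 to 0.14 (adjusted p = 0.723). A change of Mb21d1 beyond 1.11 times its mock level, or below 0.854 times, therefore lay outside the interval.

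Among the adaptors, Mavs, through which RIG-I-like receptors signal (chr2:131234067-131248025, plus strand), had 39.6, 43.0 and 40.2 cpm in METTL7A1 and 32.0, 34.1 and 26.8 cpm in mock. Tmem173 encodes STING (chr18:35733678-35740554, minus strand) and had 21.6, 24.2 and 25.3 cpm in METTL7A1 and 19.0, 17.9 and 15.7 cpm in mock. Both genes were higher in every METTL7A1 library than in any mock library. The log2 fold change was 0.40 for Mavs (SE 0.09, adjusted p = 0.00508) and 0.44 for Tmem173 (SE 0.10, adjusted p = 0.0048), that is 1.32 and 1.36 times the mock level.

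Ticam1, the gene of the TLR3 adaptor TRIF (chr17:56269319-56276786, minus strand), was the least abundant of the 9 genes, with between 40 and 101 counts a library. It stood at 2.16, 3.22 and 4.10 cpm in METTL7A1 and at 2.90, 2.27 and 2.82 cpm in mock. The METTL7A1 libraries fell on both sides of the mock libraries, and the log2 fold change of 0.26 had a 95% interval of -0.26 to 0.79 (adjusted p = 0.408). A rise of the size of Mavs or Tmem173 lies within that interval. The log2 fold change of Ticam1 was 0.0448 without METTL7A1 replicate 3 and 0.466 without METTL7A1 replicate 1, and it was called in neither.

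Traf3, the ubiquitin ligase that joins the adaptors to the kinases and restrains the non-canonical NF-κB route (chr12:111166370-111267153, plus strand), moved the other way. It was at 96.5, 101 and 103 cpm in METTL7A1 and at 141, 139 and 136 cpm in mock, with every METTL7A1 library below every mock library. The means were 100.4 ± 3.53 and 139 ± 2.75 cpm, a log2 fold change of -0.47 (SE 0.06, adjusted p = 0.000209). Traf3 thereby stood at 0.723 times its mock level, and the call held in all 14 alternatives.

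The kinases changed unequally. Ikbke, the gene of the inducible kinase IKKε (chr1:131254597-131279606, minus strand), had 3099, 4380 and 3113 counts in METTL7A1 and 821, 979 and 1166 in mock. Scaled to library size these were 167, 148 and 126 cpm against 44.9, 40.4 and 46.9 cpm. The lowest METTL7A1 library, at 126 cpm, stood above the highest mock library, at 46.9 cpm, although the METTL7A1 libraries were spread more (147 ± 20.4 cpm against 44.1 ± 3.34 cpm). The log2 fold change was 1.74 (SE 0.10, 95% interval 1.51 to 1.97, adjusted p = 5.86e-07), and 1.20% of all tested genes had a larger one. It lay between 1.64 and 1.84 in all 14 alternatives.

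Tbk1, the constitutive relative of Ikbke (chr10:121546455-121586794, minus strand), stood at 96.0, 88.1 and 81.7 cpm in METTL7A1 and at 64.0, 62.8 and 71.5 cpm in mock. Its groups were also apart, with means of 88.6 ± 7.16 and 66.1 ± 4.71 cpm and a log2 fold change of 0.42 (SE 0.08, adjusted p = 0.00179). Per kilobase of exon, the ratio of Ikbke to Tbk1 was 1.59, 1.54 and 1.42 in METTL7A1 and 0.642, 0.589 and 0.601 in mock. Tbk1 was thus the more abundant kinase mRNA in every mock library and Ikbke in every METTL7A1 library. The mean ratios were 1.52 ± 0.0915 and 0.611 ± 0.0280, and a two-sided exact permutation test gave p = 0.1, the smallest that 3 against 3 allows.

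Irf3, the transcription factor that both kinases phosphorylate (chr7:44997648-45002848, plus strand), had 25.1, 23.4 and 22.2 cpm in METTL7A1 and 27.6, 24.4 and 22.6 cpm in mock. These ranges overlapped, and the log2 fold change was -0.08 with a 95% interval of -0.28 to 0.13 (adjusted p = 0.546).

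Trex1, the exonuclease that removes cytosolic DNA (chr9:109057933-109059734, minus strand), was listed at 0 counts in all 6 libraries. All 1147 bases of its exons are covered on the same strand by an exon of Gm42641 (chr9:109057933-109059908), and Gm42641 itself had between 9 and 24 counts a library. How reads that fit 2 genes were assigned is not given in the sources used here. A count of 0 would allow at most 0.164 cpm in any library, but with this overlap the level of Trex1 cannot be read from the table. No exon of the other 9 genes overlapped a gene on its own strand. On the opposite strand, other genes covered 4.92% of the exonic bases of Mb21d1, 2.61% of Tlr3, 1.81% of Ikbke and none of the rest.

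**Figure D1:**
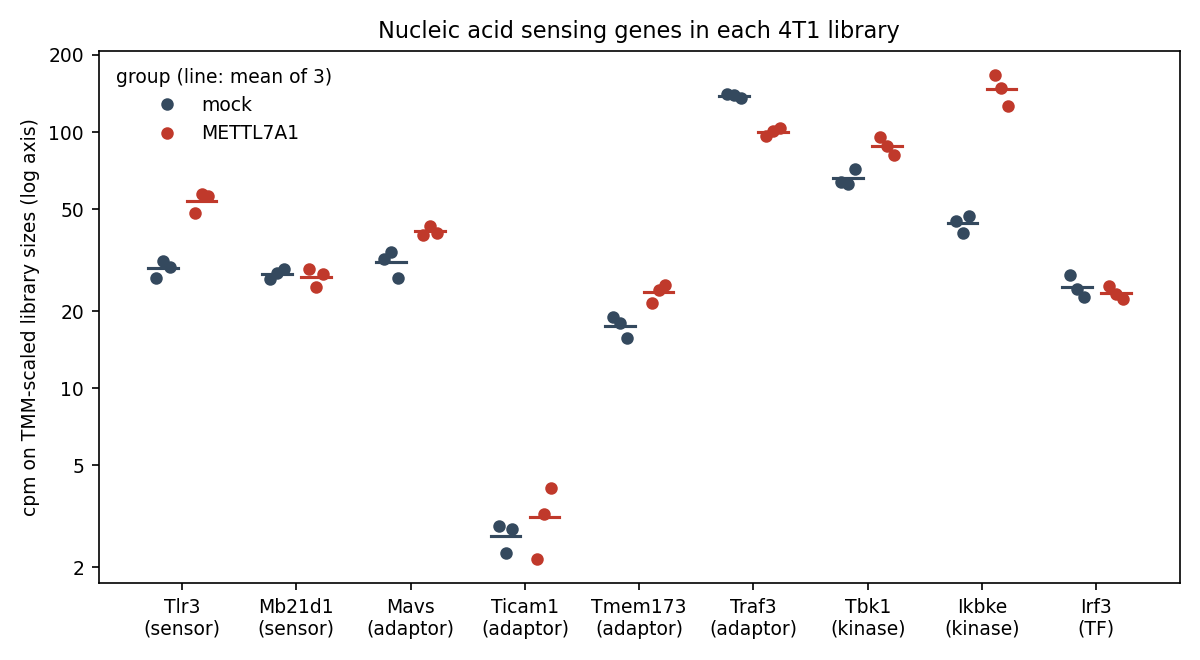
Level of each of the 9 tested sensing genes in each library, in cpm on TMM-scaled library sizes (log axis). Points are single libraries of mock (dark) and METTL7A1 (red), and lines are means of 3. The METTL7A1 points of Ikbke, Tlr3, Tbk1, Mavs and Tmem173 all lie above the mock points, those of Traf3 all lie below, and those of Mb21d1, Ticam1 and Irf3 are mixed.

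To compare genes with each other, cpm were divided by exon length in kilobases. In mock cells Tbk1 was the highest at 21.8 ± 1.55 cpm per kilobase, followed by Traf3 at 19.4 ± 0.385. Ikbke (13.3 ± 1.01), Irf3 (11.4 ± 1.14) and Mavs (10.0 ± 1.21) came next, and each overlapped its neighbour in the order over the 3 libraries. Tmem173 (7.62 ± 0.735), Mb21d1 (6.86 ± 0.320) and Tlr3 (6.54 ± 0.497) formed a lower set, again with overlap between neighbours, and Ticam1 was the lowest at 0.890 ± 0.114.

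In METTL7A1 cells Ikbke took the highest place at 44.5 ± 6.17 cpm per kilobase, above Tbk1 at 29.2 ± 2.36 without overlap. Traf3 (14.0 ± 0.493), Mavs (13.2 ± 0.577), Tlr3 (12.0 ± 1.11), Irf3 (10.8 ± 0.651) and Tmem173 (10.3 ± 0.843) followed, each overlapping the next. Mb21d1 (6.68 ± 0.525) and Ticam1 (1.05 ± 0.325) stood below them without overlap. Tlr3 thereby moved from the level of Mb21d1 to that of Mavs and Irf3, and Ikbke from that of Irf3 to the top.

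**Figure D2:**
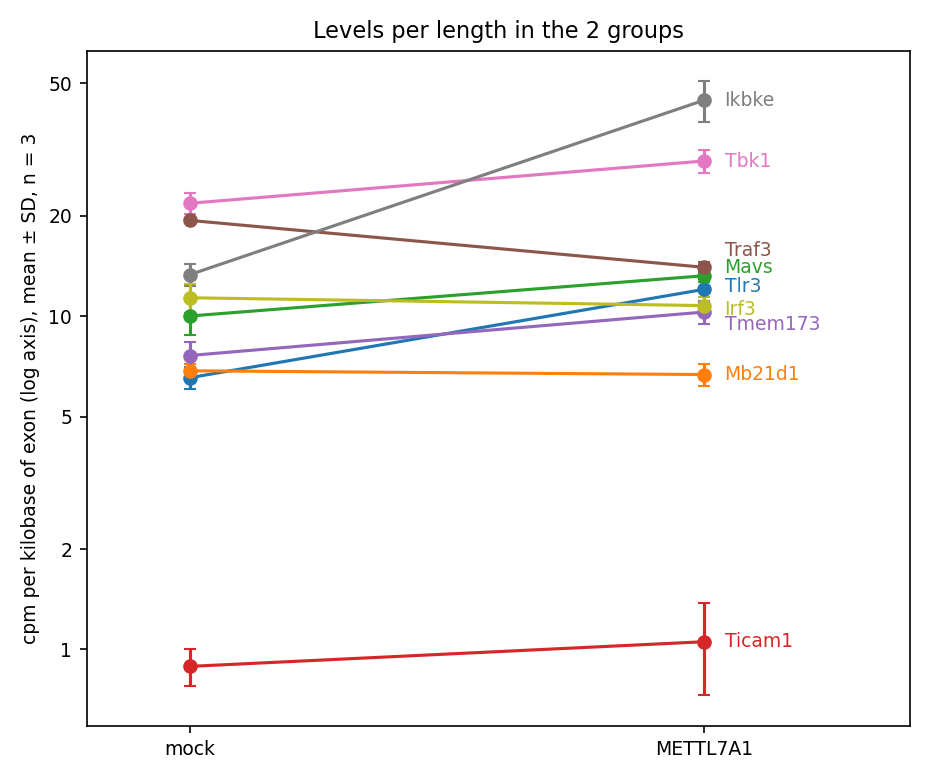
Levels of the 9 genes in cpm per kilobase of exon (log axis), as mean ± SD of 3 libraries, in mock (left) and METTL7A1 (right). The line of Ikbke, from 13.3 to 44.5, crosses those of Traf3 and Tbk1.

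Each gene was then set beside its 40 nearest tested neighbours on the chromosome, counting only genes whose mean log2 cpm exceeded 2 and leaving out the gene itself. The neighbours of Ikbke had a median log2 fold change of 0.10 and those of Tlr3 of 0.05, with 57.5% and 55% of them above 0. The neighbours of Tbk1 had a median of 0.43, as large as the change of Tbk1 itself, and 92.5% of them were above 0 over 10.7 Mb. The neighbours of Tmem173 (median 0.32, 85% above 0) and Mavs (0.26, 77.5%) were also mostly higher in METTL7A1, and those of Traf3 mostly lower (-0.26, 17.5%).

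With the neighbours' median subtracted in the fit, 3 of the 9 genes kept a call, a share near the 31.5% of all tested genes called in the same fit. Ikbke was at 1.64, Tlr3 at 0.83 and Traf3 at -0.21 (adjusted p = 0.029). Mavs fell to 0.14 (adjusted p = 0.28), Tmem173 to 0.12 (adjusted p = 0.393) and Tbk1 to -0.0070 (adjusted p = 0.96). What moved these neighbours was not tested.

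**Figure D3:**
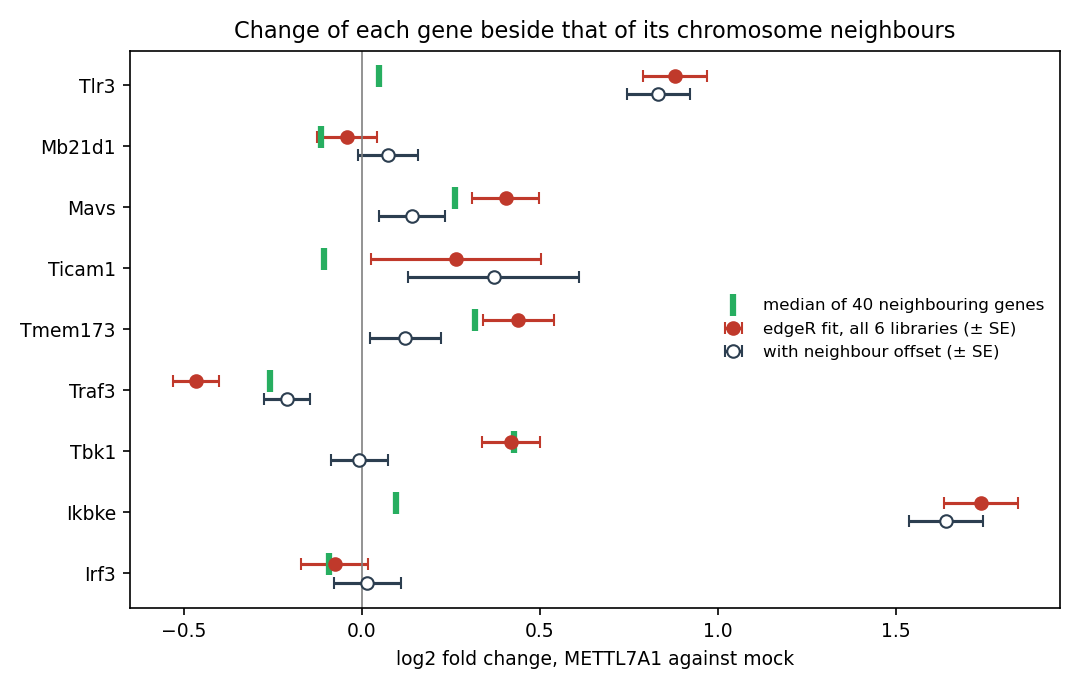
Log2 fold change (METTL7A1 against mock) of each sensing gene with its SE, from the fit over all 6 libraries (red) and with the neighbour offset (open), beside the median of its 40 neighbours (green bar). Ikbke and Tlr3 stand far from their neighbours, whereas Tbk1 lies on its neighbours' median of 0.43 and the open points of Mavs, Tmem173 and Tbk1 lie near 0.

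The rest of the pathway was followed in 11 lists of 100 genes, of which 85 were tested. Of these, 34 were higher in METTL7A1 and 8 lower at an adjusted p under 0.05, so that 49.4% were called, against 42.1% of all tested genes. The median log2 fold change of the 85 was 0.15. Pyhin1, Rsad2 and Unc93b1, which passed the abundance filter only through the METTL7A1 libraries, are counted in the 34, the 49.4% and the median. The called genes numbered 30 without METTL7A1 replicate 2 and between 35 and 45 in the other 13 alternatives.

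Of 6 tested RNA sensors, 3 were higher and none lower (50% called, against 42.1% of all tested genes). The 3 were the RIG-I-like receptors, namely Dhx58 (LGP2, 7.46 ± 0.699 against 2.5 ± 0.195 cpm, log2 fold change 1.58, SE 0.16), Ifih1 (MDA5, 0.68, SE 0.09) and Ddx58 (RIG-I, 0.36, SE 0.07). The other tested RNA sensors, Eif2ak2, Dhx9 and Zc3hav1, had log2 fold changes between -0.07 and 0.05 and were not called. Zbp1 was under the filter, with 12 to 32 counts in METTL7A1 libraries and 6 to 9 in mock libraries. With no abundance filter, 4 RNA sensors were called. Of 4 tested genes in the list of endosomal receptors and their adaptors, 1 was higher and none lower (25% called, against 42.1% of all tested genes). Myd88, Irak1 and Irak4 had log2 fold changes between -0.14 and 0.28 and were not called. The called gene was Unc93b1, the chaperone that carries these receptors to endosomes, at 1.96 (SE 0.29). Unc93b1 had 5 to 16 counts in mock libraries and 40 to 61 in METTL7A1, passed the abundance filter only through the METTL7A1 libraries and was not testable when any of them was left out. Of the receptors that it carries, Tlr7, Tlr8 and Tlr9 had at most 7 counts, whereas Tlr3 was at the levels given above.

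DNA sensors went in both directions, with 6 of 10 higher and 3 lower (90% called, against 42.1% of all tested genes). Among the 6, Pyhin1 entered the test only through the METTL7A1 libraries. The called DNA sensors numbered 7 without METTL7A1 replicate 1 or 2, and also 7 with the neighbour offset. Among the PYHIN genes, a multigene family of interferon-inducible DNA-binding proteins whose reads may be shared, Ifi203 was higher (69.2 ± 2.55 against 28.1 ± 3.16 cpm, log2 fold change 1.30, SE 0.09), as was Ifi204 (0.63, SE 0.07). Ddx41, a helicase reported to bind DNA, fell by 0.86 on the log2 scale (SE 0.08) and Polr3a, the large subunit of RNA polymerase III, fell by 0.72 (SE 0.09). Both kept a call with the neighbour offset, at -0.37 and -0.40. By contrast, none of the 6 genes that handle cGAMP or STING, such as Enpp1, which hydrolyses cGAMP, was called by edgeR, DESeq2 or voom, and 0 had an unadjusted p under 0.05. Their log2 fold changes lay between -0.07 and 0.19. Without METTL7A1 replicate 1, 1 of them was called, and with the neighbour offset 2.

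Of 10 genes that clear nucleic acids, 2 were higher and 1 lower, with a median of 0.04, and this share of calls can be read against the 42.1% of all tested genes. Rnaseh2b, a subunit of the nuclease that removes RNA from DNA, was lower at -0.66 (SE 0.10). Samhd1, which hydrolyses deoxynucleotides, was higher at 0.29 (SE 0.07) but not with the neighbour offset (0.13, adjusted p = 0.175). Dnase1l1 was higher at 0.46 (SE 0.12), and its adjusted p was 0.0635 without METTL7A1 replicate 2. Of 10 regulators of the sensors, 3 were higher and 1 lower (40% called, near the 42.1% of all tested genes). Nlrc3, a negative regulator of STING, was at 0.90 (SE 0.17), Trim25, a ubiquitin ligase of RIG-I, at 0.32 (SE 0.07) and Zcchc3, a co-sensor, at -0.62 (SE 0.15). Cyld, a deubiquitinase, was called at 0.19, a call lost without METTL7A1 replicate 2 or 3 or mock replicate 1 (adjusted p = 0.14, 0.071 and 0.0927) or with no abundance filter (adjusted p = 0.0507).

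Among 14 further adaptors and kinase scaffolds, 3 were higher and 1 lower (28.6% called, below the 42.1% of all tested genes). Optn, the gene of optineurin, which binds TBK1, was higher at 0.60 (SE 0.08), and Tank, a scaffold of TBK1 and IKKε, was lower at -0.43 (SE 0.08). The subunits of the classical IKK complex showed smaller changes. Ikbkg was at 0.29 (SE 0.07) and Ikbkb at 0.25 (SE 0.07), and the call of Ikbkb was lost without METTL7A1 replicate 1 or 2 or mock replicate 2 (adjusted p = 0.0516, 0.0964 and 0.0858). With the neighbour offset Ikbkb was at 0.0655 (adjusted p = 0.547).

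Of 8 transcription factors, 3 were higher and 2 lower (62.5% called, against 42.1% of all tested genes). Without METTL7A1 replicate 2 or 3 or mock replicate 1, 3 were called. Stat2, a component of the interferon-activated factor ISGF3, was at 0.75 (SE 0.10) and at 0.32 with the neighbour offset, and Irf1 was at 0.27 (SE 0.06). Irf5 was lower at -0.88 (SE 0.18). Irf7, the interferon-induced relative of Irf3, was at 0.84 (SE 0.30) with 16 to 62 counts a library. Its call was lost without METTL7A1 replicate 2 (0.53, adjusted p = 0.258), and without METTL7A1 replicate 3, mock replicate 1 or mock replicate 3 its adjusted p was 0.0574, 0.096 and 0.105. With DESeq2 it was 0.1.

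The interferon genes themselves were at the floor. Ifnb1, Ifna4 and Ifnl2 had 0 counts in all 6 libraries, and Ifna2 and Ifnl3 had 1 count in a single mock library each. A count of 0 allows at most 0.102 to 0.164 cpm by the library. The type I interferon receptor was higher, with Ifnar2 at 0.65 (SE 0.09) and Ifnar1 at 0.42 (SE 0.07), as was Tyk2, a kinase bound to it, at 0.44 (SE 0.10). Jak1, its partner kinase, was at -0.01 and not called.

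Genes that IRF3 and interferon are known to induce had the highest median of the 11 lists. Of 8 tested IRF3 target genes, 6 were higher and none lower (75% called, against 42.1% of all tested genes). Their median log2 fold change was 1.23, and both the count and the median include Rsad2. Rsad2 (viperin) had 111, 215 and 160 counts in METTL7A1 and 8, 4 and 7 in mock, a log2 fold change of 4.52 (SE 0.27). Like Unc93b1, Rsad2 passed the abundance filter only through the METTL7A1 libraries and was not tested when any of them was left out. Oasl1 was at 26.6 ± 1.03 against 5.08 ± 0.389 cpm (2.38, SE 0.10), Ifit1 at 1.95 (SE 0.22) and the chemokine gene Cxcl10 at 1.39 (SE 0.18). Not every target rose, since Ifit2 was at -0.18 and Isg20 at 0.15 and neither was called.

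Of 5 tested OAS genes, whose products sense RNA duplexes, 4 were higher (80% called, against 42.1% of all tested genes), with a median of 0.65. Without METTL7A1 replicate 1 or 2 or mock replicate 1 or 2, 2 were called. Oas3 had 161, 280 and 200 counts in METTL7A1 and 23, 15 and 26 in mock (3.19, SE 0.22), and Oasl2 was at 1.72 (SE 0.11). Oas1b was at 0.65 (SE 0.20) and Oas1a at 0.62 (SE 0.21), with adjusted p between 0.0581 and 0.132 for Oas1b and between 0.0678 and 0.137 for Oas1a in the fits without METTL7A1 replicate 1 or 2 or mock replicate 1 or 2. With DESeq2 the adjusted p of Oas1a was 0.058. The OAS genes are a family of close copies, among which reads may be split. The ISRE was present in the promoter windows of 5 of the 8 IRF3 target genes that had a window, Rsad2 among them. Of all 11 lists, 20 of the 81 genes with a window had it. Of these 20 genes 11 were called higher in METTL7A1, Rsad2 among them, as were 27 of the 81. The 20 and the 81 include genes that were not tested, such as Ifna2 and Ifit3, whereas the 21.1% of all genes is a share of tested genes. A gene was counted where any of its windows matched, whereas the 3.44% given above is a share of windows. Whether the letters and the calls go together was not tested.

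Of 7 leukocyte markers 2 were tested, and both were higher in METTL7A1, Cd68 at 1.23 and Csf1r at 1.68, but Csf1r was under 1 cpm in every mock library and entered the test only through the METTL7A1 libraries. Ptprc (3 to 8 counts a library), Itgam, Itgax, Adgre1 and Cd3e were under the filter, with overlapping groups. The summed level of the 7 was 14.2 to 16.5 cpm in METTL7A1 and 5.90 to 6.84 cpm in mock, and Cd3e was at 0. Cd68 made up most of it, with means of 12.8 and 5.43 cpm. Of 6 fibroblast markers only Pdgfra was tested (0.47). The 6 summed to 23.7 to 26.6 cpm in METTL7A1 and 17.3 to 19.7 cpm in mock, with Lum at 0. Pdgfra made up most of these sums, with means of 24.5 and 17.7 cpm. The 5 epithelial markers summed to 1419 to 1683 and 1402 to 1714 cpm, and 1 of them, Krt14, was lower (-1.94). The part of other cells in the rises of Ikbke, Tlr3 and the interferon-induced genes was not tested.

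**Figure D4:**
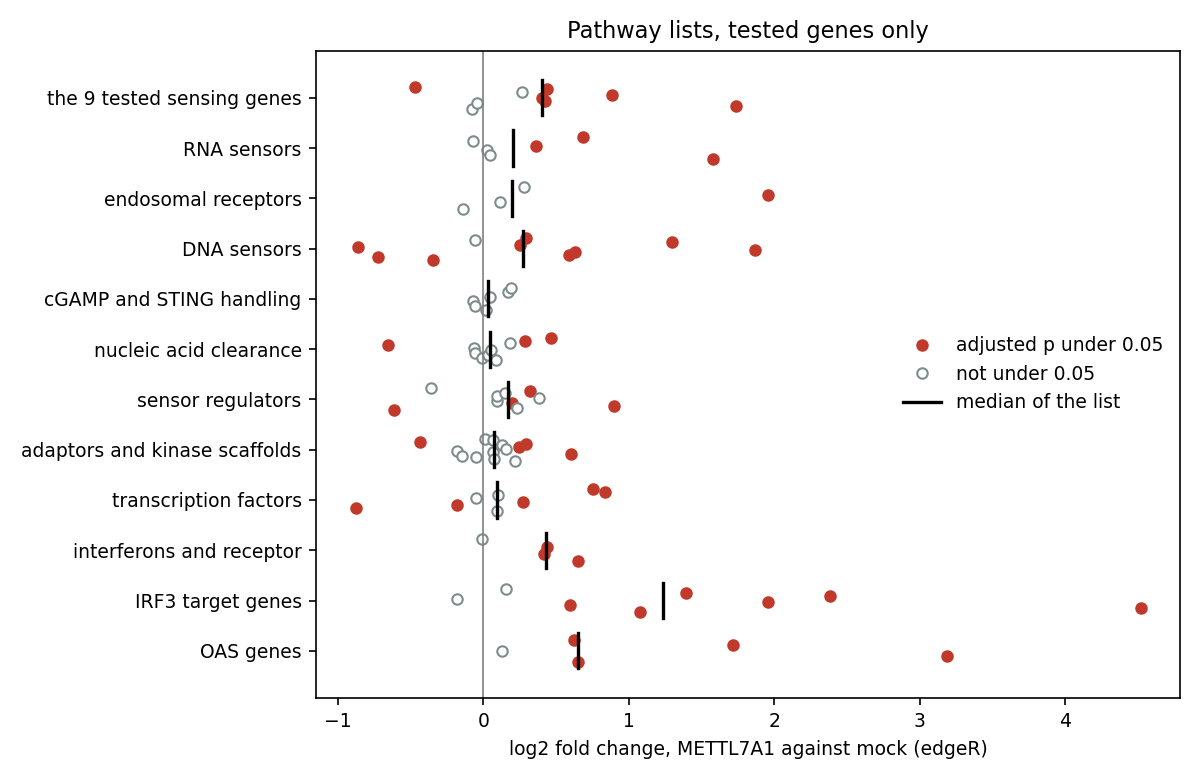
Log2 fold change (METTL7A1 against mock) of every tested gene of the 9 sensing genes and the 11 lists. Filled points had an adjusted p under 0.05, open points did not, vertical position within a list is arbitrary, and bars are list medians. The medians of the IRF3 target genes (1.23) and of the OAS genes (0.65) lie above those of the other lists, which run from 0.03 to 0.43.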

How the data were processed

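Sample titles gave the groups and replicate numbers. The labels call the 3 samples of a group biological triplicates. The treatment text of the mock samples also names the Mettl7a1 cDNA, but their title and genotype say mock. Per the study's methods, the authors prepared stranded libraries depleted of ribosomal RNA, trimmed reads with BBDuk, aligned pairs to mm10 with STAR 2.5.3a and assigned them to Ensembl genes with featureCounts in R 3.5.1. They deposited raw counts per gene, with no normalization, and the deposited table gives each gene's exon length in bases. Strand and multiple-mapping settings are not given in the sources used here.

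The analysis used edgeR 4.0.16 under R 4.3.3. Genes entered it where they reached 1 cpm in 3 or more libraries. Libraries were scaled by TMM, and METTL7A1 was compared with mock by the quasi-likelihood test without covariates. P values were adjusted over all 13166 genes (Benjamini-Hochberg), and a call is an adjusted p under 0.05. SE is the log2 fold change divided by the square root of F. Limits of detection cover counting error only, whereas the 95% intervals of log2 fold changes come from the fit and include the spread between replicates. The test was also tried on simulated counts, whose mean levels and spread were taken from these libraries. Alternatives were RLE and upper quartile scaling, no filter, a filter of 10 counts in every library, a replicate block, DESeq2 1.42.0, voom (limma 3.58.1), each library left out and the neighbour offset.

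The 10 genes, the lists, the markers and the alternatives were chosen with earlier results of these data known, and the lists are not independent evidence. Some genes of the lists and markers are not reported here, and the counts leave them out. All 10 genes are described, and from each list at most the 4 called genes with the smallest adjusted p. Others (the uncalled, the interferons, and those under the filter) were named after their values were seen. Motifs were sought in RefSeq promoter windows outside chromosome 18, and the κB letters were widened after the windows had been looked at.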

Additional observations from a re-analysis of the deposited data

How the results depend on the processing

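Ikbke, Tlr3 and Traf3 kept direction and call in all 14 alternatives, and 6 of the 9 genes were called in every alternative except the neighbour offset, where 3 were. With the offset Mavs fell to 0.14 and Tmem173 to 0.12 and neither was called, Tbk1 turned to -0.0070, and the uncalled Irf3 (0.0152) and Mb21d1 (0.0735) changed sign. Leaving out each library in turn, Irf3 ranged from -0.133 to 0.0158 (above 0 without mock replicate 1) and Mb21d1 from -0.0808 to 0.0186 (above 0 without METTL7A1 replicate 2). The offset subtracts the neighbours' median by construction, and the cause of the regional changes was not tested. Genes past the study thresholds numbered 326, and 710 with no abundance filter (28601 genes tested) and 205 with at least 10 counts in every library. Leaving out each library in turn gave 243 to 282 such genes and 3761 to 5753 at an adjusted p under 0.05, the fewest without METTL7A1 replicate 2. The median of all genes stayed between -0.03 and 0.01 in every setting. Same-numbered replicates did not deviate together (correlations of -0.15, 0.20 and -0.37), so the replicate numbers were not taken as pairs. A replicate block gave 4810 genes at an adjusted p under 0.05 and 331 past the study thresholds, with 6 of the 9 sensing genes called and 35 of the list genes, 2 of them OAS genes. The calls of Cyld (adjusted p = 0.0703), Irf7 (0.0518), Oas1b (0.0537) and Oas1a (0.074) were lost in that fit. Low counts limited Irf7, Unc93b1 and the interferon genes.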
